A study of Mus musculus with 5 samples.

Results

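Matrix metalloproteinases and their tissue inhibitors were examined in single cells of the atherosclerotic mouse aortic arch. The set was given as 9 gene names and held 6 proteases (Mmp2, Mmp3, Mmp9, Mmp13, Mmp14 and Mmp19) and 3 inhibitors (Timp1, Timp2 and Timp3). All 9 were found among the 26189 genes of the count tables. The members were taken by name, with earlier results of these data known, and no threshold on a measured value was used.

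The proteases are zinc-dependent enzymes that cut collagens, elastin, proteoglycans and other matrix proteins. Most are secreted as inactive precursors and are activated outside the cell, while Mmp14 is anchored in the membrane and activates the precursor of Mmp2. The Timp proteins bind the active site of these enzymes, and Timp2 also bridges the Mmp2 precursor to Mmp14. In atherosclerotic plaque the balance of proteases and inhibitors is studied because it bears on the collagen of the fibrous cap.

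Of the 5 samples of the series, the single arch sample was used, and the 4 cultured macrophage samples were not analysed here. It was made from female mice, 12 weeks old per the labels (which do not say at which point), of C57BL/6J wild-type and of C57BL/6N-Saa3tm1.1(KOMP)Vlcg/MbpMmucd genotype. The design text calls them littermates, although the labels give 2 C57BL/6 substrains. Mice of both genotypes had received an AAV vector for mPCSK9 with the D377Y change under the liver promoter hAAT, followed by 18 weeks of Western diet, so both groups carried the atherosclerosis model and no untreated arch is part of the comparison. Live cells positive for CD45, the surface marker of blood-derived cells, were sorted from the digested arch, and the cells of each genotype carried a sample tag of their own. The number of mice behind each tag is not given in the labels.

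The tables held 889 cells for one tag and 854 for the other, and 833 and 823 cells remained after a limit of 25% mitochondrial molecules. These cells had a median of 6415 and 4698 molecules (unique molecular identifiers), and the pools shared 0 cell barcodes. The summed level of the targeted gene went against the label, although outside 2 cells the pool labelled Saa3-/- held fewer of its molecules. Saa3 had 1079 molecules (148 CPM, that is, per 1000000 molecules counted in those cells) in the pool labelled wild-type and 1268 (242 CPM) in the pool labelled Saa3-/-, of which 1124 lay in 2 fibroblast-like cells. Which tag belongs to which genotype is known only from the names of the tables, so each pool is called by its label, and every direction between pools rests on those names. With 1 pool per genotype and no replicate, no test was possible. All intervals are exact 95% intervals (Poisson for molecules, binomial for shares) and cover counting error only, not the spread between mice.

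Each cell was assigned to 1 of 14 types by fixed marker genes, none of them a member, and type names end in -like to mark this. The gate placed 1559 of 1656 cells. Of these types 9 had 20 cells or more in both pools and were described: fibroblast-like (84 cells in the pool labelled wild-type and 67 in the pool labelled Saa3-/-), smooth muscle-like (107 and 66), macrophage-like (205 and 150), monocyte-like (32 and 38), conventional dendritic cell-like (45 and 37), type 2 innate lymphoid cell-like (40 and 21), thymocyte-like (24 and 67), T cell-like (137 and 169) and B cell-like (54 and 104). Orders of types below refer to these 9. The remaining 5 types (neutrophil-, mast cell-, NK cell-, plasma cell- and endothelial-like) had 6 to 18 cells per pool. Over both pools a gate of another lineage was also passed by 17 of 27 plasma cell-like and 14 of 19 mast cell-like cells. The same held for 11 of 24 NK cell-like, 6 of 14 endothelial-like and 1 of 28 neutrophil-like cells. T- and B-cell-like cells as 1 group (191 and 273 cells) served as background for free RNA and are called the T/B background. Of these, 51 of 306 T cell-like and 56 of 158 B cell-like cells also passed a gate of another lineage. Single cells weigh on some of its values: in the pool labelled wild-type 1 cell held 11 of 18 Mmp19 and 1 cell 27 of 155 Timp2 molecules. Fibroblast-, smooth muscle- and endothelial-like cells made up 199 of 833 cells (23.9%) and 139 of 823 (16.9%) although the sort was for CD45. Ptprc, the gene of CD45, was at 133 and 72.0 CPM in fibroblast-like cells and at 106 and 144 CPM in smooth muscle-like cells, against 1527 and 1495 CPM in T cell-like cells. Since the sort was for CD45, their number does not measure the stroma of the arch.

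The proteases and inhibitors had largely the same main source. Fibroblast-, smooth muscle- and endothelial-like cells together held 2539 of 3933 protease molecules in the pool labelled wild-type, which is 64.6% (63.0 to 66.1). In the pool labelled Saa3-/- they held 2061 of 2855, which is 72.2% (70.5 to 73.8). Of the inhibitor molecules they held 7871 of 10541, 74.7% (73.8 to 75.5), and 5705 of 7347, 77.7% (76.7 to 78.6). These stromal cells carried 25.7% and 25.2% of all molecules, so the summed molecules of both groups were concentrated in them. That sum is mostly Mmp2, Mmp3 and Mmp14 among the proteases: the stromal share was 4.61% and 3.33% for Mmp9, 3.70% and 4.00% for Mmp13, and 20.0% and 36.6% for Mmp19. Macrophage-like cells, with 33.6% and 24.4% of all molecules, held 21.3% and 15.4% of the protease and 17.5% and 12.9% of the inhibitor molecules. The stromal protease share of the pool labelled Saa3-/- was 55.3% when every cell was thinned to 2000 molecules. After thinning all cells have the same total, so the stromal share of all molecules equals the stromal share of cells. That share was 16.9% in this pool before cells with fewer molecules were left out, so 55.3% is not to be set against 25.2%.

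**Figure D1:**
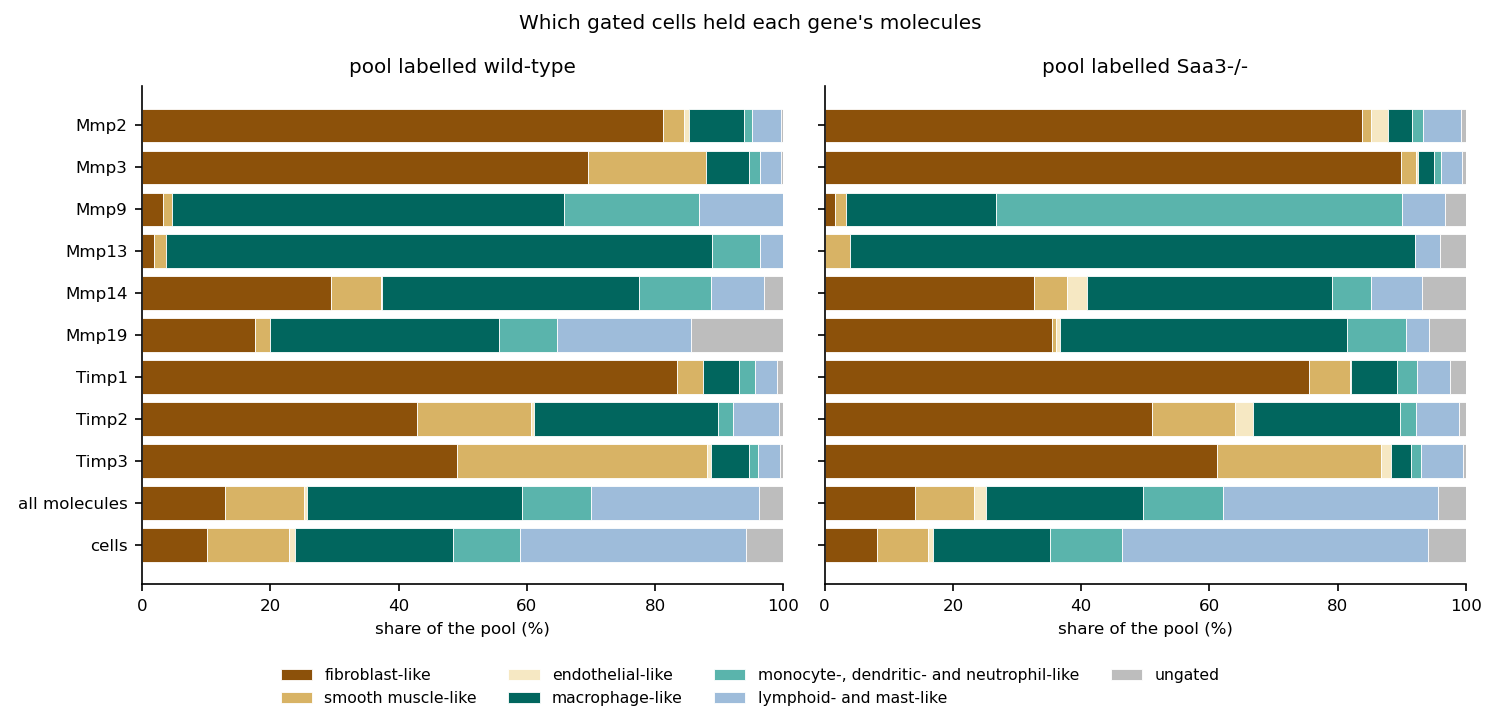
Share of each gene's molecules (x axis, percent of the pool) by the gated type that held them, for the 9 genes, for all molecules and for cells (y axis), in the pool labelled wild-type (left) and the pool labelled Saa3-/- (right). Fibroblast-like cells held 81.3% and 83.7% of Mmp2, macrophage-like cells 85.2% and 88.0% of Mmp13, and Mmp14 was divided between both types, with 29.4% and 32.7% in the first and 40.1% and 38.3% in the second.

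A gene was called type-preferring when its CPM in a type was at least 4 times that of all other cells in both pools. By this rule 5 of the 9 members preferred fibroblast-like cells (Mmp2, Mmp3, Timp1, Timp2 and Timp3), where 5.48% of the 11980 genes with at least 50 molecules did. In macrophage-like cells 1 of 9 did, Mmp13, against 1.04% of genes. None of the 9 met the rule in smooth muscle-like cells (4.37% of genes), where Timp3 came close at 4.55 and 3.35 times all other cells. The count was also 0 of 9 in monocyte-like (0.359% of genes), conventional dendritic cell-like (0.509%), T cell-like (1.51%), B cell-like (0.86%), thymocyte-like (3.01%) and type 2 innate lymphoid cell-like cells (1.26%). Mmp9, Mmp14 and Mmp19 preferred no described type.

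**Figure D2:**
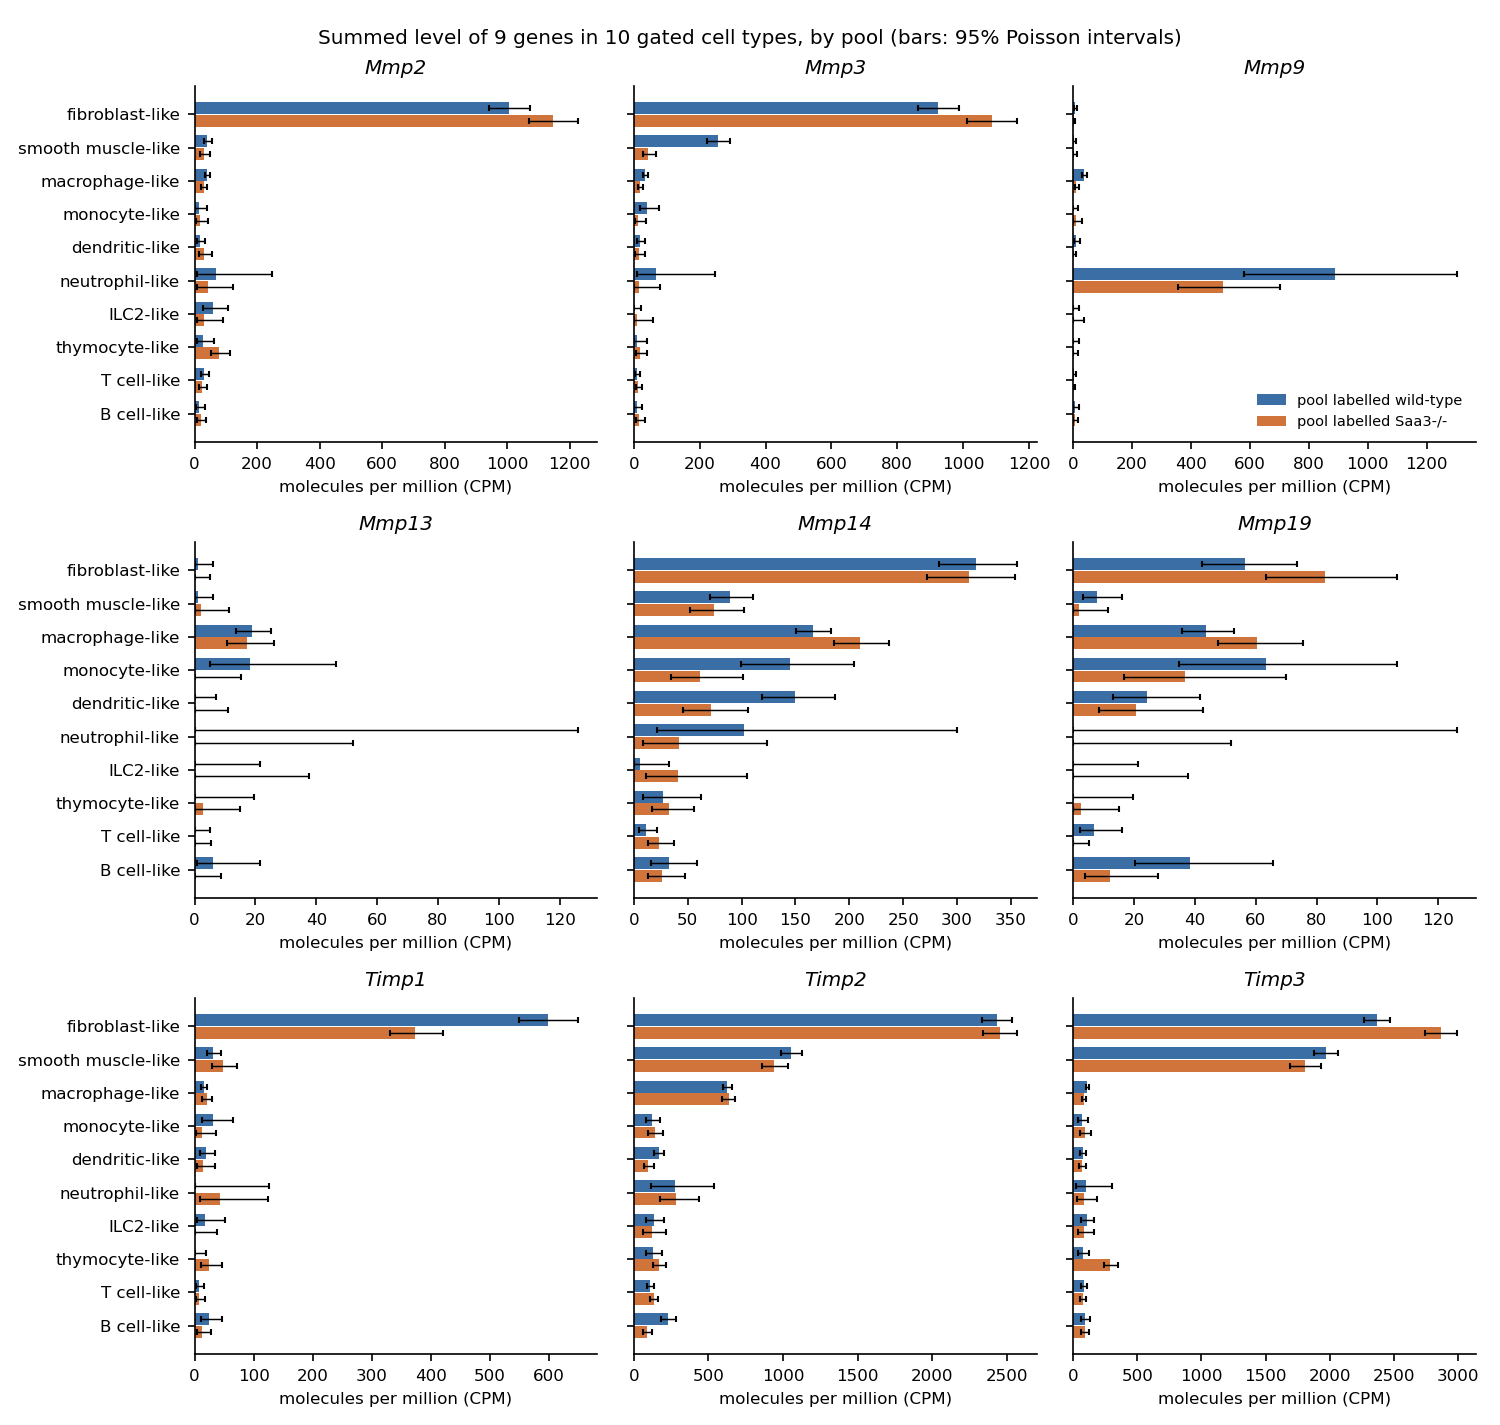
Level of each gene (x axis, CPM, a separate linear scale per panel) in 10 gated types (y axis), as summed molecules of a type over its total, in the pool labelled wild-type (blue) and the pool labelled Saa3-/- (orange), with 95% Poisson intervals. Mmp2, Mmp3 and Timp1 are highest in fibroblast-like cells, Timp2 steps down from fibroblast- to smooth muscle- to macrophage-like cells, and the Mmp9 bar of neutrophil-like cells comes from 10 and 18 cells.

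On GRCm38 (GENCODE release 21) Mmp2 spans chr8:92827291-92853420, Mmp9 chr2:164940780-164955850, Mmp14 chr14:54431612-54445364 and Mmp19 chr10:128790910-128800824, all on the plus strand. Timp1 spans chrX:20870166-20874735 and Timp3 chr10:86300372-86349506 on the plus strand, and Timp2 chr11:118301069-118355740 on the minus strand. Reads in introns were counted, per the file headers, so a molecule of a member can come from any part of its span.

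Mmp2, the gelatinase that is secreted by mesenchymal cells, had its highest level in fibroblast-like cells in both pools. Fibroblast-like cells had 946 molecules, 1006 CPM (943 to 1072), in the pool labelled wild-type and 844 molecules, 1147 CPM (1071 to 1227), in the pool labelled Saa3-/-. The T/B background was 26.3 and 22.5 CPM. The next described types in order were type 2 innate lymphoid cell-like at 58.1 CPM in the pool labelled wild-type and thymocyte-like at 77.8 CPM in the pool labelled Saa3-/-. Endothelial-like cells, too few to be described, had 10 molecules in 8 cells, 282 CPM (135 to 519), and 27 in 6 cells, 282 CPM (186 to 410). Below fibroblast-like cells the intervals of neighbouring described types overlapped, except that the thymocyte-like interval of the pool labelled Saa3-/- lay above the next one. There 13 and 8 of the 29 thymocyte-like molecules were in 2 cells. Smooth muscle-like cells, at 41.2 and 30.9 CPM, and macrophage-like cells, at 40.5 and 29.0 CPM, were 1.3 to 1.6 times the background. The message was also spread over cells: 77 of 84 and 62 of 67 fibroblast-like cells had a molecule (91.7% and 92.5%), against 13.6% and 9.16% of the background cells. At 2000 molecules per cell the shares in fibroblast-like cells were 69.9% and 70.3%, against 2.99% and 5.45% of T cell-like cells.

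Mmp3, stromelysin-1, which cuts proteoglycans and activates other metalloproteinases, also had its highest level in fibroblast-like cells but was not spread over them as Mmp2 was. Fibroblast-like cells had 868 molecules, 923 CPM (862 to 986), and 800 molecules, 1087 CPM (1013 to 1165), against a T/B background of 9.39 and 14.4 CPM. Only 38 of 84 and 30 of 67 of them had a molecule, 45.2% (34.3 to 56.5) and 44.8% (32.6 to 57.4), at a median depth of 9983 and 7504 molecules. The share in the background cells was 5.24% and 5.86%, at a median depth of 4254 and 3909 molecules in T cell-like cells. Thinning to 2000 molecules gave 25.3% and 15.6% of fibroblast-like against 2.24% and 3.03% of T cell-like cells. A cell with Mmp3 nearly always had Mmp2 as well (37 of 38 cells and 30 of 30), while 40 and 32 cells had Mmp2 without Mmp3. Mmp2 was in 77 of 84 and 62 of 67 of all fibroblast-like cells, so its share in cells with Mmp3 is near that of the type.

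A few cells held much of the Mmp3. Among fibroblast-like cells the 5 highest had 144, 119, 119, 100 and 60 molecules of it in the pool labelled wild-type. In the pool labelled Saa3-/- they held 263, 241, 141, 63 and 27, and the top 2 made up 63.0% of the type's Mmp3. These 2 cells were also the 2 with the pool's high Saa3, 799 and 325 molecules, and the first of them passed a gate of another lineage too. Without them, a choice made after seeing the values, Mmp3 was at 437 CPM in the pool labelled Saa3-/-. The pool labelled wild-type had 0 fibroblast-like cells with 10 or more Saa3 molecules, and without its own 2 highest Mmp3 cells it was at 663 CPM.

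**Figure D3:**
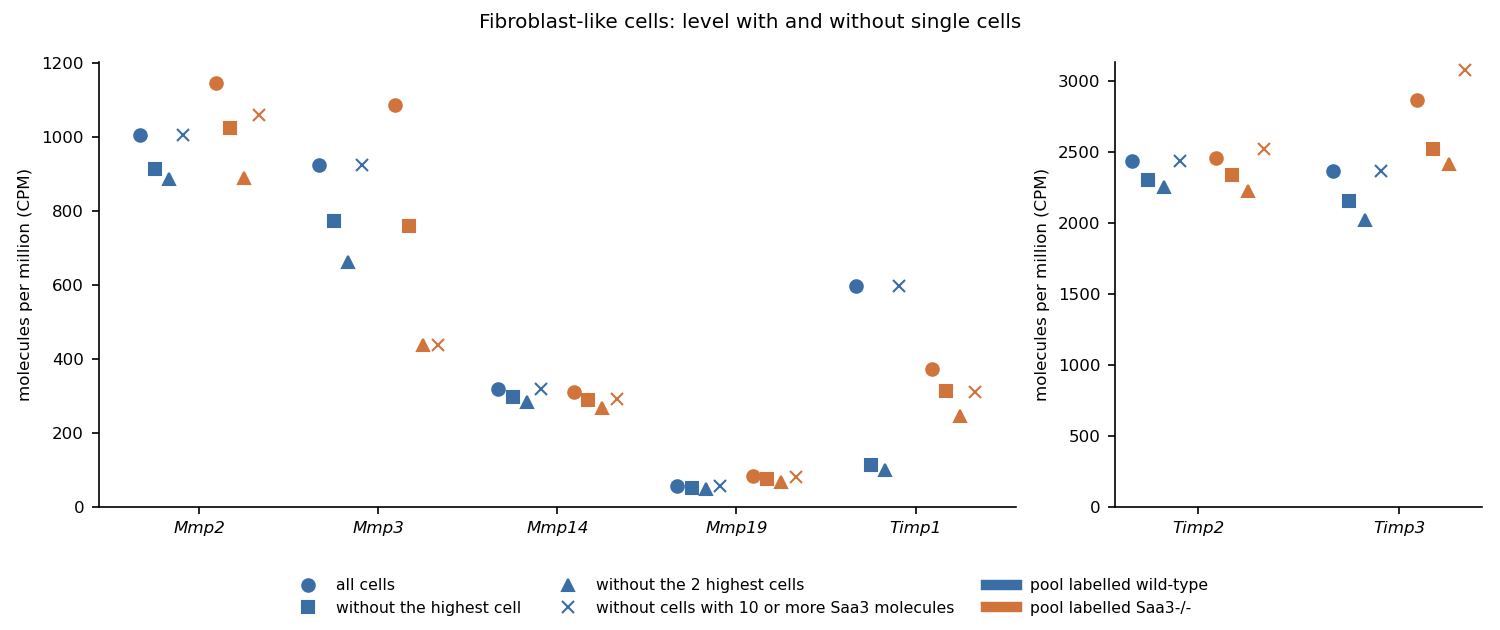
Level of 7 genes in fibroblast-like cells (y axis, CPM, linear from 0 in both panels; x axis, gene) with all cells (circles), without the cell highest in that gene (squares), without the 2 highest (triangles) and without cells with 10 or more Saa3 molecules (crosses), in the pool labelled wild-type (blue) and the pool labelled Saa3-/- (orange). Mmp3 of the pool labelled Saa3-/- goes from 1087 to 437 CPM and Timp1 of the pool labelled wild-type from 597 to 112 CPM, while the other genes keep their level more closely.

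Mmp3 and Mmp13 lie near each other on chromosome 9, both on the plus strand (GRCm38, GENCODE release 21). Mmp13 runs from 7272514 to 7283331 and Mmp3 from 7445822 to 7455975, with 162490 bases between them. Their molecules lay mainly in different cell types. The 120 bases before each start site (RefSeq, GRCm38.p6; chr9:7445702-7445821 for Mmp3 and chr9:7272394-7272513 for Mmp13) are shown because both genes carry a heptamer of the AP-1 type, given in capitals, within this short distance.
Mmp3: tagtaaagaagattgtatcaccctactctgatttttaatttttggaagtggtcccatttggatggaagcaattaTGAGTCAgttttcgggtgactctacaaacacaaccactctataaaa
Mmp13: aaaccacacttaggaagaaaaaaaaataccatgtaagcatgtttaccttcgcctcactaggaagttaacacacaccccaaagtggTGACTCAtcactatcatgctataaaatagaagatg
The heptamer, TGAGTCA or its reverse complement TGACTCA, begins at -46 for Mmp3 and -35 for Mmp13, counted from the start site. Of the 6 members with an entry these 2 held it in the 250 bases before the start, and Mmp14, Timp1, Timp2 and Timp3 did not. It lay in the same window of 4.46% of 32851 promoters. The match describes the letters, and whether a factor binds there was not measured.

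Mmp13, an interstitial collagenase, was rare and lay in macrophage-like cells. They had 46 of the 54 molecules in the pool labelled wild-type, 18.8 CPM (13.8 to 25.1), and 22 of 25 in the pool labelled Saa3-/-, 17.2 CPM (10.8 to 26.1). Fibroblast-like cells, the main source of Mmp3, had 1 molecule and 0, with upper limits of 5.92 and 5.01 CPM. The T/B background had 2 and 0. The molecules came from 11 of 205 and 5 of 150 macrophage-like cells, and single cells held up to 15 and 12. Monocyte-like cells had 4 molecules, all in 1 cell, and 0. When cells that also passed a gate of another lineage were left out, or when cells were thinned, Mmp13 had under 50 molecules, so the type rule could not be applied to it.

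Mmp9, the gelatinase of neutrophils and macrophages, was not detected above background in stromal cells. Fibroblast-like cells had 5.32 and 1.36 CPM, and smooth muscle-like cells 2.23 and 2.06 CPM, against a T/B background of 3.76 and 1.80 CPM. The highest level was in neutrophil-like cells, too few to be among the described types: 26 molecules in 10 cells, 889 CPM (580 to 1302), and 36 molecules in 18 cells, 508 CPM (356 to 703). A molecule was found in 7 of 10 and 12 of 18 of them. Among the described types macrophage-like cells were highest, with 93 molecules, 38.0 CPM (30.7 to 46.6), in the pool labelled wild-type and 14 molecules, 11.0 CPM (6.00 to 18.4), in the pool labelled Saa3-/-. The second of these intervals overlapped that of monocyte-like cells, at 8.19 CPM. Mast cell-like cells of the pool labelled wild-type had 7 molecules, 6 of them in 1 cell, or 79.7 CPM (32.0 to 164), and 0 in the other pool. Macrophage-like cells held 61.2% of all Mmp9 molecules in the first pool and 23.3% in the second.

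Mmp14, the membrane-type protease that activates Mmp2, was shared between fibroblast- and myeloid-like cells among the described types. Its level was 318 CPM (283 to 356) and 311 CPM (272 to 354) in fibroblast-like cells, and 166 CPM (151 to 183) and 210 CPM (186 to 237) in macrophage-like cells. The intervals of these first 2 types did not overlap in either pool. Macrophage-like cells nevertheless held more of its molecules, 407 of 1016 and 268 of 700, being the larger population. Conventional dendritic cell-like cells had 150 and 71.3 CPM, monocyte-like cells 145 and 61.4 CPM and smooth muscle-like cells 89.2 and 74.1 CPM, all above the T/B background of 17.8 and 24.3 CPM. Outside the described types, plasma cell-like cells had 55 and 6 molecules, or 167 and 103 CPM, but 17 of these 27 cells also passed a gate of another lineage. Endothelial-like cells had 1 and 21 molecules, or 28.2 and 219 CPM. Ungated cells had 111 and 209 CPM, with 29 of 48 molecules of the pool labelled Saa3-/- in 1 cell. In fibroblast-like cells a molecule was seen in 59 of 84 and 51 of 67 cells, and 56 and 48 of these cells also had Mmp2. That share is near the one of the whole type, where 77 of 84 and 62 of 67 cells had Mmp2. Every fibroblast-like cell with Mmp14 also had Timp2, which was in every fibroblast-like cell.

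Mmp19, a widely made secreted protease, had no single main source. In fibroblast-, macrophage- and monocyte-like cells the values were 56.3, 43.7 and 63.4 CPM in the pool labelled wild-type, and 82.9, 60.3 and 36.9 CPM in the pool labelled Saa3-/-, with overlapping intervals between neighbours in the order. Smooth muscle-like cells had 7.80 and 2.06 CPM and T cell-like cells 6.88 and 0. B cell-like cells of the pool labelled wild-type stood at 38.4 CPM, but 11 of their 13 molecules were in 1 cell. Outside the described types, ungated cells of that pool had 43 molecules, 154 CPM (111 to 208), with 18 in 1 cell, and plasma cell-like cells had 43, 130 CPM (94.4 to 176), with 27 in 1 cell. The pool labelled Saa3-/- had 10 and 0 molecules there. Of the 27 plasma cell-like cells of both pools, 17 also passed a gate of another lineage. Mmp19 overlaps Tmem198b and Gm47093 on the other strand (190 and 7 molecules over both pools), and as strand use in the counting is not given in the sources used here, reads of these genes cannot be told apart from its own.

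Timp1, the inducible inhibitor, had its highest level in fibroblast-like cells, and that level rested on few cells. Fibroblast-like cells had 562 molecules, 597 CPM (549 to 649), and 275 molecules, 374 CPM (331 to 420), against 6.88 and 7.21 CPM in T cell-like cells. In the first pool 458 of the 562 molecules were in 1 cell, which passed a gate of another lineage as well. Without it the level was 112 CPM, below the 313 CPM of the other pool without its own highest cell. The order of the pools thus turned with 1 cell. The highest cells of the pool labelled Saa3-/- held 54, 54 and 40 molecules. A molecule was found in 38 of 84 and 38 of 67 fibroblast-like cells, and thinned to 2000 molecules in 14.5% and 23.4% of them against 0.746% and 0.606% of T cell-like cells. No other described type had more than 47.3 CPM. Timp1 lies within the span of Syn1 on the other strand, which had 96 molecules.

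Timp2, the inhibitor that takes part in Mmp2 activation, had the broadest pattern of the 3. Fibroblast-like cells had 2433 CPM (2335 to 2535) and 2455 CPM (2343 to 2571), smooth muscle-like cells 1056 CPM (990 to 1125) and 942 CPM (858 to 1033), and macrophage-like cells 626 CPM (595 to 658) and 636 CPM (593 to 681). The intervals of these 3 types did not overlap, and the order was the same in both pools. All other described types lay between 90.9 and 228 CPM, where the T/B background was 146 and 117 CPM. Outside the described types, endothelial-like cells had 677 CPM (434 to 1008) from 8 cells and 1013 CPM (822 to 1236) from 6. Mast cell-like cells had 501 and 155 CPM, plasma cell-like cells 373 and 240 CPM and neutrophil-like cells 273 and 282 CPM. Over both pools 14 of 19 mast cell-like and 17 of 27 plasma cell-like cells also passed a gate of another lineage. Timp2 was found in 84 of 84 and 67 of 67 fibroblast-like cells and in 195 of 205 and 134 of 150 macrophage-like cells. At 2000 molecules per cell it was in 97.6% and 96.9% of fibroblast-like, 77.1% and 76.2% of smooth muscle-like, 62.7% and 61.5% of macrophage-like and 20.9% and 21.2% of T cell-like cells. Timp2 overlaps Cep295nl on the same strand, which had 21 molecules.

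Timp3, the inhibitor that stays bound to the matrix, was found mainly in stromal cells. Its level was 2366 CPM (2269 to 2467) and 2865 CPM (2744 to 2990) in fibroblast-like cells, and 1969 CPM (1878 to 2063) and 1810 CPM (1693 to 1934) in smooth muscle-like cells, so smooth muscle-like cells came much closer to fibroblast-like cells for Timp3 than for Timp2. A molecule was found in 101 of 107 and 65 of 66 smooth muscle-like cells. Macrophage-like cells, at 112 and 84.6 CPM, were at 1.32 and 1.03 times the T/B background of 84.5 and 81.9 CPM, which is read as background. Thymocyte-like cells of the pool labelled Saa3-/- stood above it at 290 CPM (238 to 350). Their 2 highest cells held 40 and 38 of the 108 molecules, which is 72.2%, so this level rested on 2 cells. Endothelial-like cells had 29 molecules in 8 cells and 55 in 6, or 818 and 575 CPM. Timp3 overlaps Syn3 on the other strand, which had 135 molecules.

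The fibroblast-like cells were not uniform. Their 10 leading genes by fold were Ibsp, Col2a1, Prg4, Dcn, Col10a1, Chad, Lum, Scara5, Pdgfra and Mmp2. Dcn, Lum and Pdgfra are on their own marker list and Col2a1 and Chad on the chondrocyte list, while Ibsp, Prg4 and Col10a1 are also known from bone and cartilage. Skeletal genes thus outnumbered the fibroblast markers among the 10, and the name fibroblast-like says only which markers gated the cells. The 3 chondrocyte genes (Acan, Col2a1 and Chad) were at 2826 and 6155 CPM in sum, with none at 0, and 41 of 151 cells had at least 2 of them. The 21 such cells of the pool labelled wild-type had Mmp2 at 1147 CPM and Mmp3 at 626 CPM, and the other 63 had 919 and 1104 CPM. In the pool labelled Saa3-/- the 20 such cells had 1277 and 1420 CPM and the other 47 had 1015 and 751 CPM. Mmp2 was thus somewhat higher in the cells with chondrocyte genes in both pools, and Mmp3 went opposite ways. Timp1 did so too, at 132 CPM in the cells with chondrocyte genes against 882 CPM in the others in the pool labelled wild-type. The second value includes the cell with 458 Timp1 molecules. In the pool labelled Saa3-/- Timp1 was at 500 against 246 CPM. Both sets of cells had Timp2 between 1839 and 3076 CPM and Timp3 between 2087 and 2978 CPM. A gate of another lineage was passed by 43 of the 151 fibroblast-like cells. The values without them are given where they change a direction or a count.

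Smooth muscle-like cells were mainly a source of inhibitors. They had Timp2 and Timp3 as above, with Mmp2 at 1.57 and 1.37 times background, Mmp9 and Mmp19 at 1 to 7 molecules and Mmp13 at 1 molecule in each pool. Mmp14 was at 5.00 and 3.05 times background. Mmp3 stood apart, at 255 CPM (223 to 291) in the pool labelled wild-type and 43.2 CPM (26.7 to 66.0) in the pool labelled Saa3-/-. In the first pool 124 of the 229 molecules were in 1 cell, which also had 14 molecules of the modulated smooth muscle list (Tnfrsf11b, Col8a1 and Vcam1). That list was higher in fibroblast-like cells (911 and 1181 CPM) than in smooth muscle-like cells (378 and 150 CPM), so it does not tell these types apart. Without that cell Mmp3 was at 118 CPM. The fibroblast gate was also passed by 40 of 107 and 31 of 66 smooth muscle-like cells, so the border between these types is not sharp.

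Macrophage-like cells were then split by which of 3 lists scored highest in each cell: resident (Lyve1, Folr2, F13a1, Cd163, Cbr2 and Gas6), lipid-laden (Trem2, Gpnmb, Spp1, Cd9, Fabp5 and Lgals3) or inflammatory (Il1b, Tnf, Cxcl2, Nlrp3, Ccl3 and Ccl4). The sets are ranges of a score and not separate types, and 74 of 355 cells had their 2 highest scores within 0.2 of each other. The resident set had 83 and 39 cells, the lipid-laden set 59 and 52 and the inflammatory set 63 and 59. With all cells, Mmp9, Mmp14 and Mmp13 each had their highest level in a different set. Values at least 2-fold above the other macrophage-like cells in both pools were seen for Mmp9 and Mmp3 in the resident set (2 of 9 members, 1.67% of genes), for Mmp14 in the lipid-laden set (1 of 9, 1.16% of genes) and for Mmp13 in the inflammatory set (1 of 9, 0.523% of genes). The 2-fold limit and the split by highest score were chosen after values had been seen.

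Mmp9 was nearly confined to the resident set, with 90 of 93 molecules in the pool labelled wild-type and 13 of 14 in the pool labelled Saa3-/-, or 92.5 CPM (74.4 to 114) and 45.3 CPM (24.1 to 77.5). The molecules came from 19 of 83 and 6 of 39 cells, and the highest cells had 20 and 5. The 6 neutrophil markers summed to 154 and 131 CPM in resident-set cells with Mmp9 and to 84.4 and 81.4 CPM in those without Mmp9, where neutrophil-like cells had 36569 and 32257 CPM. Leaving out the cells that passed the neutrophil gate (3 and 0 cells) gave 92.3 and 45.3 CPM. Leaving out all cells of 2 lineages gave 109 and 25.2 CPM. Macrophage- and neutrophil-like cells count as 1 lineage there, so that setting does not bear on neutrophil RNA. Mmp3 in the resident set was at 52.4 and 34.9 CPM, against 22.4 and 13.1 CPM in the other macrophage-like cells. In the first pool 26 of its 51 molecules were in 1 cell, and its 2-fold call rests on that cell.

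Mmp14 was at 261 CPM (224 to 302) and 362 CPM (312 to 417) in the lipid-laden set, at 182 and 138 CPM in the inflammatory set and at 86.4 and 48.8 CPM in the resident set, the same order in both pools. Mmp13 was at 49.8 CPM (35.4 to 68.0) and 28.0 CPM (14.9 to 47.9) in the inflammatory set, from 6 of 63 and 2 of 59 cells, against 4.21 and 11.1 CPM in the other macrophage-like cells. In the pool labelled Saa3-/- 12 of the 13 Mmp13 molecules of the inflammatory set were in 1 cell, and the 2-fold call rests on that cell. Without cells of 2 lineages Mmp13 was at 32.6 against 3.71 CPM in the pool labelled wild-type, but at 2.72 against 13.5 CPM in the other, so the order turned there. Among the inhibitors, Timp2 was highest in the resident set at 831 CPM (774 to 890) and 986 CPM (875 to 1108), next in the lipid-laden set at 629 and 615 CPM and lowest in the inflammatory set at 369 and 442 CPM. The resident set was thus highest for Timp2 and lowest for Mmp14 in both pools. Timp1 and Timp3 ranged over the sets and pools from 10.2 to 26.7 CPM and from 75.4 to 125 CPM.

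**Figure D4:**
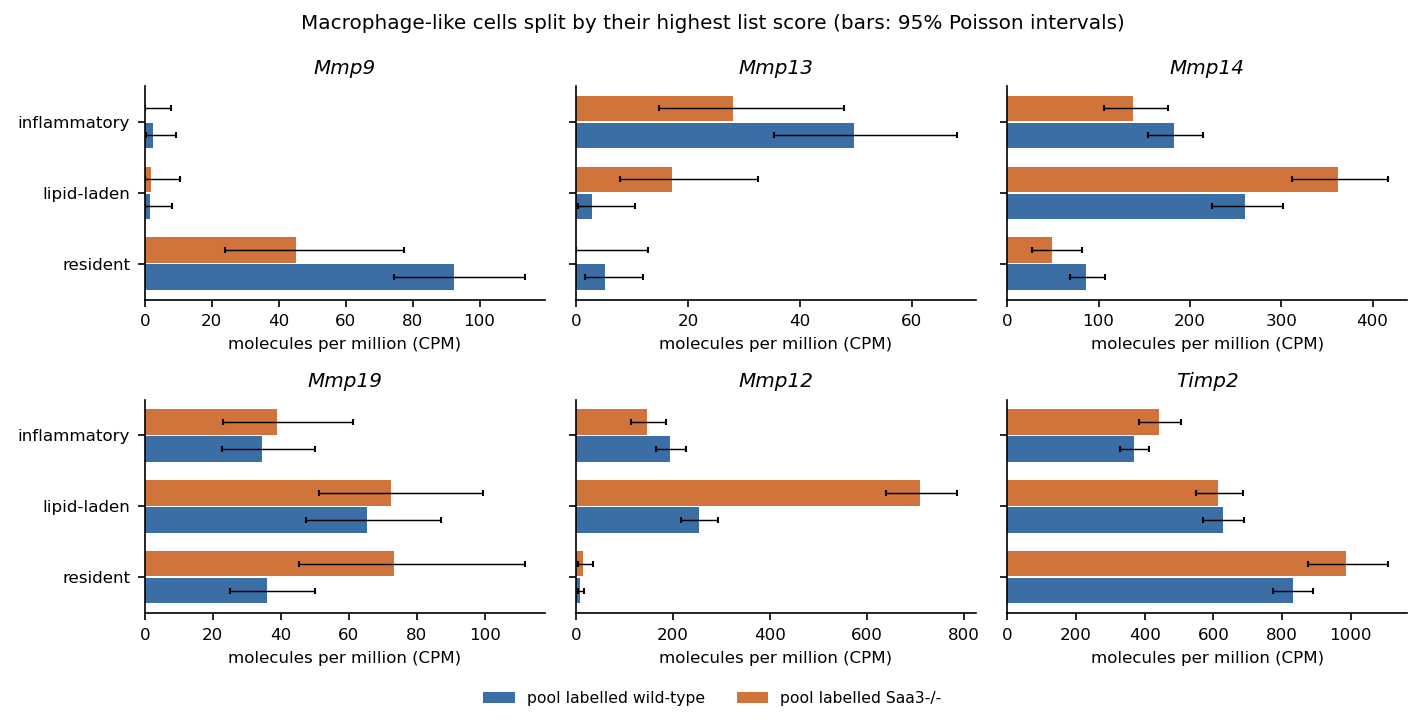
Level (x axis, CPM, a separate linear scale per panel) of 6 genes in macrophage-like cells grouped by their highest list score (y axis), in the pool labelled wild-type (blue) and the pool labelled Saa3-/- (orange), with 95% Poisson intervals. Mmp9 is at 92.5 and 45.3 CPM in the resident set and under 3 CPM elsewhere, Mmp14 is highest in the lipid-laden set and Timp2 in the resident set. Mmp13 is highest in the inflammatory set with all cells. In the pool labelled Saa3-/- that order turns to 2.72 against 13.5 CPM in the other macrophage-like cells without cells of 2 lineages. Mmp12 is highest in the lipid-laden set with all cells, an order that in the pool labelled wild-type turns to 154 against 250 CPM in the inflammatory set without cells of 2 lineages.

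The pools were compared within types by a log2 ratio of their CPM that is positive where the pool labelled Saa3-/- was higher, with 0.5 molecule added to each count. A ratio was computed where a type had at least 20 molecules of the gene, which held for 43 pairs of member and type, and 8 of them were past 2-fold. By type, 2.67% to 9.53% of all genes tested were that far higher and 2.28% to 7.87% that far lower. In fibroblast-like cells 0 of 7 members were past it, where 4.03% of genes were higher and 3.9% lower. The summed ratio there was 0.19 for the proteases and 0.08 for the inhibitors. The protease ratio turned to -0.13 without the 2 highest cells of each pool, to -0.31 without the 2 Saa3-high cells and to -0.33 when cells were given equal weight, so no direction can be given for it. The Timp1 ratio of -0.68 (-0.89 to -0.47) turned to 1.94 without cells of 2 lineages. Mmp14 at -0.03 (-0.29 to 0.22) and Timp2 at 0.01 (-0.08 to 0.10) were nearest to 0. Timp3 at 0.28 (0.19 to 0.36) stayed between 0.15 and 0.51 over 12 alternatives, and Mmp19 at 0.55 (0.00 to 1.12) between 0.50 and 0.58 over 11.

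In macrophage-like cells 1 of 9 members was past 2-fold, Mmp9, lower in the pool labelled Saa3-/- (2.28% of genes lower and 2.69% higher). Its log2 ratio was -1.75 (-2.72 to -0.97), and over 12 alternatives it stayed between -2.83 and -1.52. The resident set, which held nearly all Mmp9, was 83 of 205 macrophage-like cells in one pool and 39 of 150 in the other. In smooth muscle-like cells 1 of 6 members was past 2-fold, Mmp3, at -2.53 (-3.28 to -1.92), where 3.73% of genes were lower and 2.67% higher. The ratio was -1.85 without the 2 highest cells of each pool.

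Members were past 2-fold in 5 other types. Mmp14 was lower in conventional dendritic cell-like cells at -1.05 (-1.79 to -0.40; 1 of 5 members, 5.53% of genes lower and 3.76% higher) and in monocyte-like cells at -1.21 (-2.23 to -0.31; 1 of 4 members, 5.97% of genes lower and 4.54% higher). In the pool labelled wild-type the 2 highest cells of these types held 32.5% and 46.9% of the type's Mmp14 molecules. Timp2 was lower in B cell-like cells at -1.32 (-1.93 to -0.75; 1 of 3 members, 6.87% of genes lower and 5.66% higher), where 27 of the 77 molecules of the pool labelled wild-type were in 1 cell. Mmp14 was higher in T cell-like cells at 1.02 (-0.24 to 2.50; 1 of 4 members, 3.04% of genes higher and 3.45% lower), from 8 and 16 molecules. Thymocyte-like cells had 2 of 3 members higher (9.53% of genes higher and 3.98% lower), Mmp2 at 1.44 (0.16 to 3.27) and Timp3 at 1.92 (1.15 to 2.88). In the pool labelled Saa3-/- the 2 highest cells held 72.4% of the 29 Mmp2 molecules (13 and 8). For Timp3 they held 72.2% of the 108 molecules (40 and 38). In type 2 innate lymphoid cell-like cells 0 of 2 members were past 2-fold (5.81% of genes higher and 7.87% lower). Over all cells 0 of 9 members were past it (2.72% of genes higher and 1.5% lower).

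**Figure D5:**
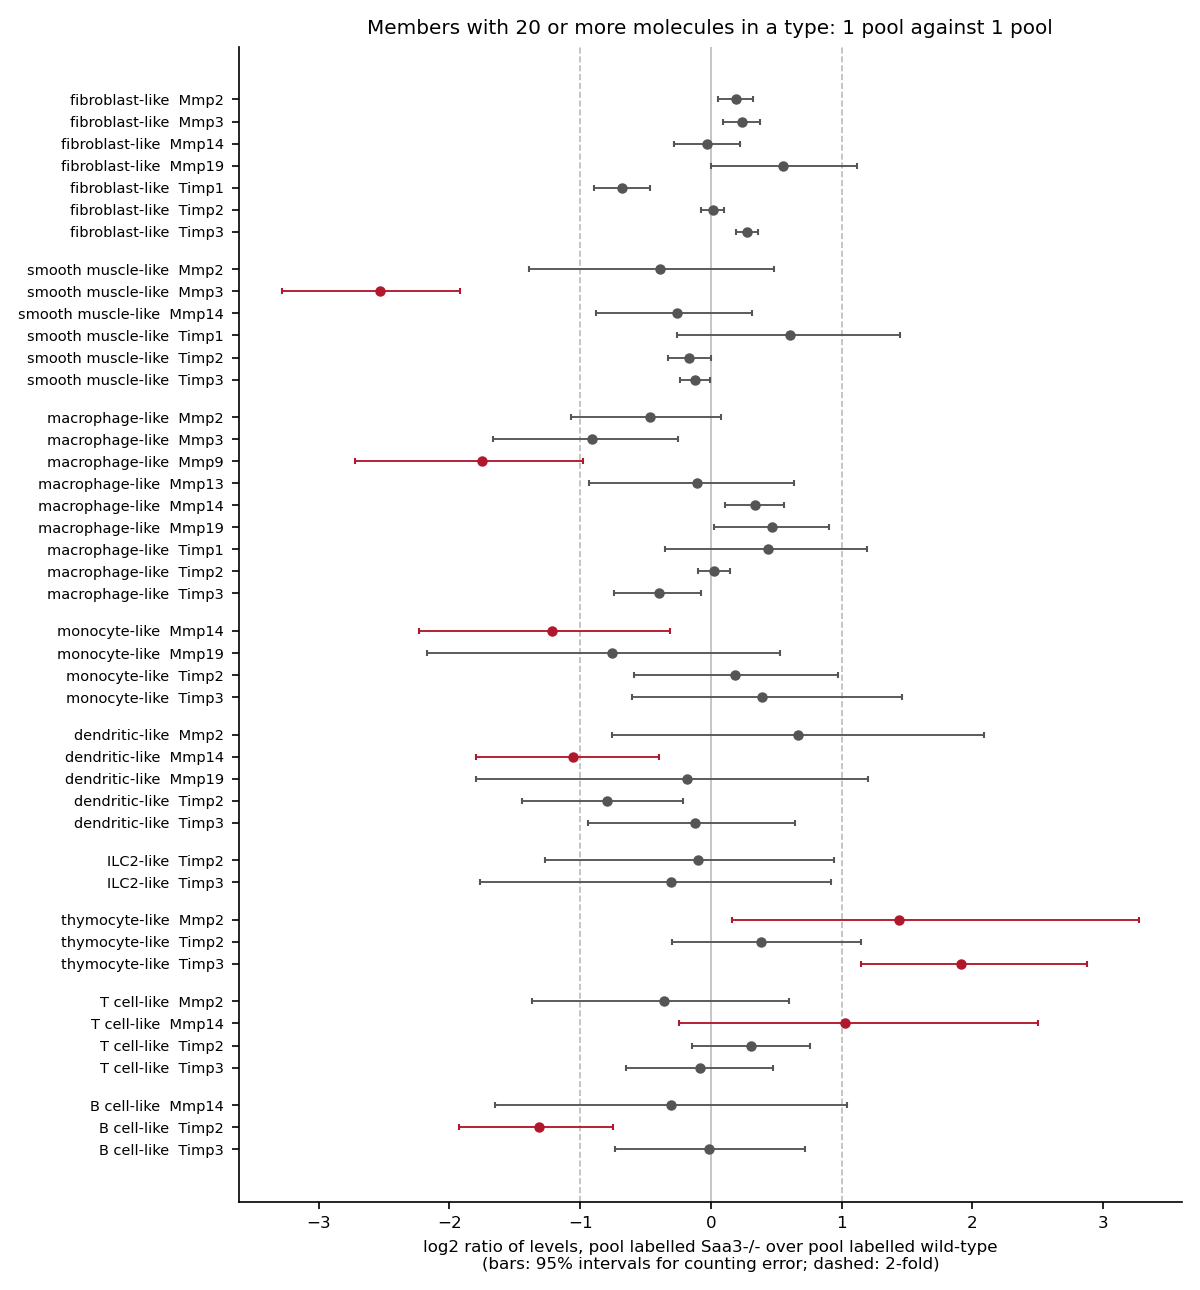
Log2 ratio of CPM between the pools (x axis, positive where the pool labelled Saa3-/- is higher) for the 43 pairs of member and cell type with at least 20 molecules (y axis), with 95% intervals for counting error and dashed lines at 2-fold. The 8 red points are past 2-fold, led by Mmp3 in smooth muscle-like cells at -2.53, and the Timp2 points of fibroblast- and macrophage-like cells lie at 0.01 and 0.02. By type, 2.67% to 9.53% of all genes tested were that far higher and 2.28% to 7.87% that far lower.

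Other genes of the system were taken from lists. Of 17 other Mmp genes 16 were in the tables and 7 had at least 50 molecules. Mmp12, the macrophage elastase, was the most counted with 1003 molecules and preferred macrophage-like cells, at 137 and 349 CPM, a log2 ratio of 1.35. In the pool labelled Saa3-/- it was at 710 CPM (640 to 786) in the lipid-laden set, with a molecule in 24 of 52 cells, and at 147 CPM in the inflammatory set. The pool labelled wild-type had 253 CPM (217 to 294) and 194 CPM (164 to 227) in these sets, an order that turned to 154 and 250 CPM without cells of 2 lineages and to 192 and 256 CPM without cells that passed the neutrophil gate. Mmp23 (303 molecules) preferred fibroblast-like cells at 85.0 and 91.0 CPM, and Mmp25 (194 molecules) preferred type 2 innate lymphoid cell-like cells. Of 4 other inhibitors, Reck, a membrane-anchored inhibitor, alone had 50 molecules and preferred fibroblast-like cells at 106 and 143 CPM.

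Of 17 Adam and Adamts genes, 15 had at least 50 molecules, 6 preferred fibroblast-like and 2 smooth muscle-like cells, with 1 gene counted in both. The 3 most counted, Adam15, Adam17 and Adam10, are membrane-bound sheddases and preferred no type. Of 10 genes of protease activation and clearance, 2 preferred fibroblast-like cells, 1 smooth muscle-like cells (Serpine2, an inhibitor of serine proteases, at 1326 and 1251 CPM), 1 macrophage-like cells, 1 type 2 innate lymphoid cell-like cells and 5 no described type. Of 9 matrix substrates 7 preferred fibroblast-like and 2 smooth muscle-like cells, Bgn being counted in both at 5139 and 5458 CPM and at 4445 and 4649 CPM. Of all 11980 genes tested, 5.48% preferred fibroblast-like, 4.37% smooth muscle-like, 1.26% type 2 innate lymphoid cell-like and 1.04% macrophage-like cells. In fibroblast-like cells the median log2 pool ratio was 0.19 over the 7 members, -0.14 over 13 Adam and Adamts genes and 0.24 over 9 substrates, against -0.02 over all 8890 genes.

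The genes most like each member were sought over 18 points, the 9 described types in both pools, by the Pearson correlation of log2(CPM + 10) among 7995 genes, as a description. They were Fbln1, Clec11a and Abca8b for Mmp2 (0.97 to 0.98), C1qtnf7, Gsn and Adamts5 for Mmp3 (0.95 to 0.96), Tnfaip6, C1ra and Meg3 for Timp1 (0.95 to 0.97), Gas6 and Ecm1 for Timp2 (0.96 to 0.97), and Bgn, Mfap4 and Mgp for Timp3 (0.99). For the proteases with myeloid levels they were Rrbp1, Acvrl1 and Slc39a1 for Mmp14 (0.90 to 0.92), Xdh, Gda and Lamp2 for Mmp19 (0.90), Ntpcr, C5ar1 and Cd33 for Mmp13 (0.88 to 0.91), and P2ry12, Retnla and Ccl12 for Mmp9 (0.77 to 0.78). All points of a pool share its library, and with the rank correlation 3 of the 27 names were the same.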

How the data were processed

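The authors' count tables hold, per the file headers, numbers of molecules for each gene in each cell from the BD Rhapsody WTA Analysis Pipeline 1.11.1, on GRCm38 with GENCODE mouse release 19. The submitters' processing notes also name R 4.3.1 and Seurat 4.3.0, without a role. Strand use in the counting is not given in the sources used here.

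Members and gene lists were chosen with earlier results of these data known. Cells with more than 25% of molecules from mt- genes were left out. A cell took the type with the highest mean z-score of log1p molecules per 10000 over its markers, if the score was at least 0.5 and 2 markers had a molecule. The marker lists preceded this scoring rule, which was set with the tables in hand, as were the macrophage split, the chondrocyte split and the limit of 10 Saa3 molecules. Cells called as tag multiplets (11) or without a tag call (647) are not among the cells of the 2 tables. No doublet caller was run, and leaving out cells that passed gates of 2 lineages was an alternative. Macrophage-, monocyte-, conventional dendritic cell- and neutrophil-like cells counted as 1 lineage there, so overlap among them was kept. Fibroblast- and smooth muscle-like cells also counted as 1 lineage. The same held for T cell-, thymocyte-, NK cell- and type 2 innate lymphoid cell-like cells, and for B cell- and plasma cell-like cells. Levels were summed molecules over all molecules of the same cells. All members were named, and of each list at most the 3 genes with the most molecules. Of the genes most like each member, 3 were named per member, except 1 gene that is not reported here. With 1 pool per tag no test, SE or p-value was computed, and the 4 cultured macrophage samples were not analysed here. Depth ran from 1581 to 55599 molecules per cell in the pool labelled wild-type and from 1595 to 40833 in the other. Python 3.11.15, numpy 2.4.6, pandas 2.3.3, scipy 1.17.1, scanpy 1.11.5 and leidenalg 0.10.2 were used, with edgeR 4.0.16 in R 4.3.3 for TMM factors. The calculations were tested on simulated data. Alternatives covered cell filters, Leiden clusters, thinning to 2000 molecules, scaling, the pseudocount, the molecule minimum and the highest cells.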

Additional observations from a re-analysis of the deposited data

How the results depend on the processing

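Thinning moved 32 single levels and ratios beyond their counting interval and left 38 within it, and leaving out cells of 2 lineages moved 26 and left 50. In the pool labelled wild-type the stromal protease share of 64.6% was 66.2% without cells of 2 lineages and 56.0% without fibroblast-like cells holding at least 2 chondrocyte genes. In the pool labelled Saa3-/- 72.2% became 66.6% and 53.6% under these settings, 55.3% after thinning and 63.7% without the Saa3-high cells. Thinning gives all cells the same total, so shares after thinning are to be read against the stromal share of cells. The stromal inhibitor share of 74.7% was 75.6% after thinning and 69.0% without the cells with chondrocyte genes, and 77.7% became 78.9% without cells of 2 lineages, 72.1% after thinning and 69.9% without the cells with chondrocyte genes. The log2 pool ratio of the proteases in fibroblast-like cells, 0.19, was -0.25 without cells of 2 lineages, -0.30 after thinning, -0.33 with equal weight per cell, -0.13 without the 2 highest cells of each pool, -0.31 without the Saa3-high cells and -0.15 without the cells with chondrocyte genes. The inhibitor ratio of 0.08 was 0.0051 with Leiden clusters, 0.19 after thinning, 0.24 with equal weight per cell, 0.17 without the 2 highest cells and 0.22 without the cells with chondrocyte genes. The 8 pairs past 2-fold numbered 4 of 36 without the 2 highest cells and 5 of 32 with at least 50 molecules. No share over all genes was computed under these 2 settings, so the counts are not read as a result about the members. The 5 fibroblast preferences were found under each of 5 cell settings, and Timp3 also met the rule in smooth muscle-like cells after thinning. Of the levels compared under alternatives 315 moved by less than their counting interval and 63 by more. The settings without Saa3-high cells, without cells with chondrocyte genes and without neutrophil-gate passers were added after seeing the data. With 1 pool per genotype, depth limits only the counting error, and the spread between mice is not known. No paired analysis was possible because each tag is 1 pool and the numbered replicates belong to cultured macrophage samples not analysed here.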
